A study of Mus musculus with 4 samples.

Results

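The AP-1 and immediate early genes *Fos*, *Fosb*, *Fosl2*, *Jun*, *Junb*, *Jund*, *Egr1*, *Atf3*, *Ier2* and *Dusp1* were evaluated in RNA-seq of prostate epithelial cells sorted from developing mice. The 10 genes were taken by name from a table of 49671 genes, and all 10 passed the filter on low values. The study compared basal and luminal cells at the ductal tips during postnatal development. Both cell types came from untreated CD-1 mice at postnatal day 10 to 13, from the tips of the ventral prostate lobe. That age is the labels', and the study's methods end the range at day 12. Basal cells were EpCAM high and CD49f high (2 libraries, replicates 1 and 3), and luminal cells were EpCAM high and CD49f low (2 libraries, replicates 3 and 2). Cells positive for CD45, CD31 or CD140a had been gated out of both groups. The groups were defined by surface markers alone, with no lineage tracer. Ventral lobes of many mice were used, and whether they were combined before sorting is not stated. Nothing in the labels ties a library to its own set of animals, so the spread between replicates may be partly technical.

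Immediate early genes are transcribed within minutes of a stimulus, without new protein synthesis, when MAP kinases phosphorylate factors already bound at their promoters. AP-1 is a dimer of a Fos family and a Jun family protein that binds DNA through a basic region and a leucine zipper, and it is known for roles in proliferation, wound response and epithelial differentiation. Enzymatic dissociation and sorting are themselves known to induce these genes, and here the tissue was minced and digested with collagenase for hours, then sorted before lysis. The part of that handling in the levels was not tested.

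The libraries carried between 643187 and 3194325 reads on genes, and both luminal libraries were shallower than both basal libraries, so depth and cell type cannot be told apart. The unit is the normalized read count, the authors' gene count scaled to a common total per library. Of the lineage markers read as a check of the labels, 5 of 6 basal genes were called higher in basal cells by limma and 1 of 6 luminal genes higher in luminal cells, against 0.438% and 0.256% of all genes tested. *Itga6*, which encodes CD49f, was at 18302 ± 2715 (SD, n = 2) in basal and 3960 ± 532 (SD, n = 2) in luminal cells (log2 difference -2.21, SE 0.24, limma adjusted p = 0.0410). The basal keratin *Krt5* differed by -7.64 (SE 0.26, limma adjusted p = 0.00613), and the luminal keratin *Krt19* by 3.38 (SE 0.36, limma adjusted p = 0.0410). Without a filter on low values the adjusted p of all 3 was 0.228. Without each library in turn it was 0.111 to 0.183 for *Itga6* and 0.0553 to 0.253 for *Krt19*, and after rescaling to nuclear protein-coding genes it was 0.0579 for *Itga6*. Nuclear protein-coding genes held 74.7% to 76.0% of the normalized counts in basal and 57.3% to 64.2% in luminal libraries, and rescaling to them moved the median log2 difference of all genes from -0.10 to 0.21.

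The immediate early genes were abundant in every sorted library. Summed over the 10 genes, they held 1.83% (95% Wilson confidence interval 1.81 to 1.84) of the reads in basal replicate 1 and 1.00% (0.991 to 1.01) in basal replicate 3. Luminal replicate 2 had a share of 1.06% (1.03 to 1.08), and luminal replicate 3 one of 0.718% (0.702 to 0.734). Basal replicate 1 therefore stood above the other libraries, while basal replicate 3 and luminal replicate 2 lay close together although they belong to different cell types. Of nuclear protein-coding counts alone, the shares were 2.40% and 1.34% in basal replicates 1 and 3 and 1.65% and 1.25% in luminal replicates 2 and 3, so luminal replicate 2 was above basal replicate 3 on both scales. These intervals cover counting error only. In bulk samples, fewer cells that express a gene and less RNA per cell cannot be told apart.

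**Figure D1:**
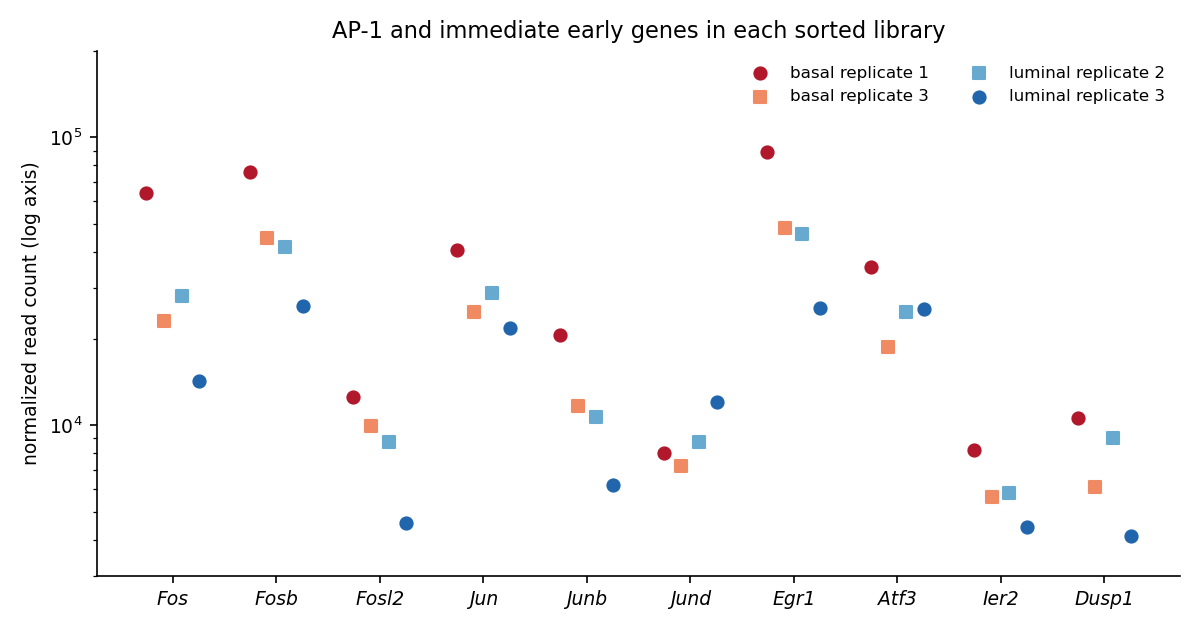
Normalized read count (log axis) of each of the 10 genes in the 4 libraries, with 1 point per library. Basal replicate 1 is the highest library for 9 genes, and *Jund* runs the other way with its highest value of 12005 in luminal replicate 3.

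*Fos* and *Fosb* encode the inducible partners of the Jun proteins. *Fos* (ENSMUSG00000021250, chromosome 12 of GRCm38, 85473890 to 85477273, plus strand) was at 63948 and 22988 in basal replicates 1 and 3 and at 28046 and 14212 in luminal replicates 2 and 3. The basal and luminal libraries overlapped, since luminal replicate 2 lay above basal replicate 3. The group means were 43468 ± 28963 and 21129 ± 9782 (SD, n = 2 each), a log2 difference, luminal minus basal, of -0.94 (95% interval -2.42 to 0.54, SE 0.59, limma adjusted p = 0.447). *Fosb* (ENSMUSG00000003545, chromosome 7, 19302696 to 19310051, minus strand) was at 76060 and 44710 in basal and 41509 and 25965 in luminal replicates 2 and 3. Both basal libraries were above both luminal libraries, by a narrow margin between basal replicate 3 and luminal replicate 2, and the log2 difference was -0.83 (95% interval -1.85 to 0.19, SE 0.41, limma adjusted p = 0.353). *Fosl2* (ENSMUSG00000029135, chromosome 5, 32135801 to 32157842, plus strand) encodes Fra-2, a Fos protein without a strong transactivation domain. It was at 12506 and 9951 in basal and 8757 and 4569 in luminal replicates 2 and 3, again without overlap, and the log2 difference was -0.82 (95% interval -1.73 to 0.10, SE 0.36, limma adjusted p = 0.312).

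The Jun family did not share a direction. *Jun* (ENSMUSG00000052684, chromosome 4, 95049034 to 95052222, minus strand) encodes the main inducible Jun protein and was at 40626 and 24820 in basal and 28732 and 21744 in luminal replicates 2 and 3. Its groups overlapped, and the log2 difference was -0.35 (95% interval -1.21 to 0.52, limma adjusted p = 0.611). *Junb* (ENSMUSG00000052837, chromosome 8, 84974484 to 84978718, minus strand), whose protein can restrain c-Jun, was at 20635 and 11699 in basal and 10689 and 6177 in luminal replicates 2 and 3. Its groups did not overlap, and the log2 difference was -0.94 (95% interval -1.95 to 0.08, limma adjusted p = 0.300), the lowest adjusted p of the 10 genes. *Jund* (ENSMUSG00000071076, chromosome 8, 70698949 to 70700616, plus strand) encodes the Jun protein that resting cells already carry. The mean log2 value was lower in luminal cells for 9 of the 10 genes, as for 54.1% of all genes tested, and *Jund* was the exception; the sign of *Atf3* also turned under each other scaling tried. *Jund* was at 8010 and 7197 in basal and 8726 and 12005 in luminal replicates 2 and 3, without overlap (log2 difference 0.43, 95% interval -0.20 to 1.06, limma adjusted p = 0.420). The annotation places the antisense genes *Junos* over *Jun* and *Gm11175* over *Jund*. *Gm11175* was at 5643 and 5560 in the basal libraries (replicates 1, 3) and at 6233 and 9778 in the luminal libraries (replicates 2, 3), and *Junos* was between 1468 and 3179. Since use of strand in counting is not stated, reads of these pairs cannot be told apart and the values of *Jun* and *Jund* are uncertain to that extent.

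Other immediate early regulators are given next. *Egr1* (ENSMUSG00000038418, chromosome 18, 34859823 to 34864984, plus strand), a zinc finger factor induced through serum response elements, had the highest mean normalized count of the 10 genes in both cell types, although *Fosb* was above it in luminal replicate 3. It was at 89230 and 48562 in basal and 46058 and 25500 in luminal replicates 2 and 3, with basal replicate 3 just above luminal replicate 2 (log2 difference -0.94, 95% interval -2.09 to 0.21, limma adjusted p = 0.349). *Atf3* (ENSMUSG00000026628, chromosome 1, 191170296 to 191218039, minus strand), a stress-induced bZIP repressor, was at 35328 and 18766 in basal replicates 1 and 3 and at 24805 and 25384 in luminal replicates 2 and 3. Both luminal values lay between the basal ones, and the log2 difference was -0.04 (95% interval -0.95 to 0.87, limma adjusted p = 0.967).

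*Ier2* (ENSMUSG00000053560, chromosome 8, 84661331 to 84662852, minus strand), a nuclear protein of the early growth response, was at 8173 and 5612 in basal and 5827 and 4434 in luminal replicates 2 and 3 (log2 difference -0.41, 95% interval -1.13 to 0.31, limma adjusted p = 0.484). *Dusp1* (ENSMUSG00000024190, chromosome 17, 26505590 to 26562128, minus strand), the phosphatase that switches off p38 and JNK, was at 10609 and 6074 in basal and 9037 and 4105 in luminal replicates 2 and 3 (log2 difference -0.40, 95% interval -1.58 to 0.78, limma adjusted p = 0.665). In both genes luminal replicate 2 lay above basal replicate 3, so the groups overlapped. *Prdx2* overlaps *Junb* and *Ergic1* overlaps *Dusp1* on the opposite strand, and at most 1697 and 2306 counts were assigned to these neighbours in any library.

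The cell types were compared with limma across all genes. Of the 10 genes, 0 had an adjusted p under 0.05 and 0 had an unadjusted p under 0.05. Over the 18737 genes tested, 0.438% were called higher in basal and 0.256% higher in luminal cells at the adjusted threshold, and 18.5% had an unadjusted p under 0.05. By the study's fold rule, a ratio of group averages of 2 or more, 1 of 10 was higher in basal cells (*Fos*, 2.06-fold) and 0 in luminal cells, while 16.3% and 18.3% of all genes passed in these directions. The median log2 difference of the 10 genes was -0.62, against -0.10 over all genes tested. It was -0.17 without basal replicate 1, -0.28 without luminal replicate 3 and -1.07 without luminal replicate 2. The number past the fold rule toward basal cells was 0, 0 and 6 in these settings and 4 without basal replicate 3. The median was -0.31 with rescaling to nuclear protein-coding genes, where the median of all genes was 0.21, and no gene of the 10 then passed the fold rule toward basal cells.

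Both basal libraries lay above both luminal libraries in 4 of the 10 genes (*Fosb*, *Fosl2*, *Junb* and *Egr1*), an order held by 27.3% of all genes tested and by 48.4% of genes averaging at least 1000. The opposite order held for *Jund* alone, against 23.6% of all genes and 16.6% of those averaging at least 1000. The members' 4 of 10 lay between these backgrounds.

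**Figure D2:**
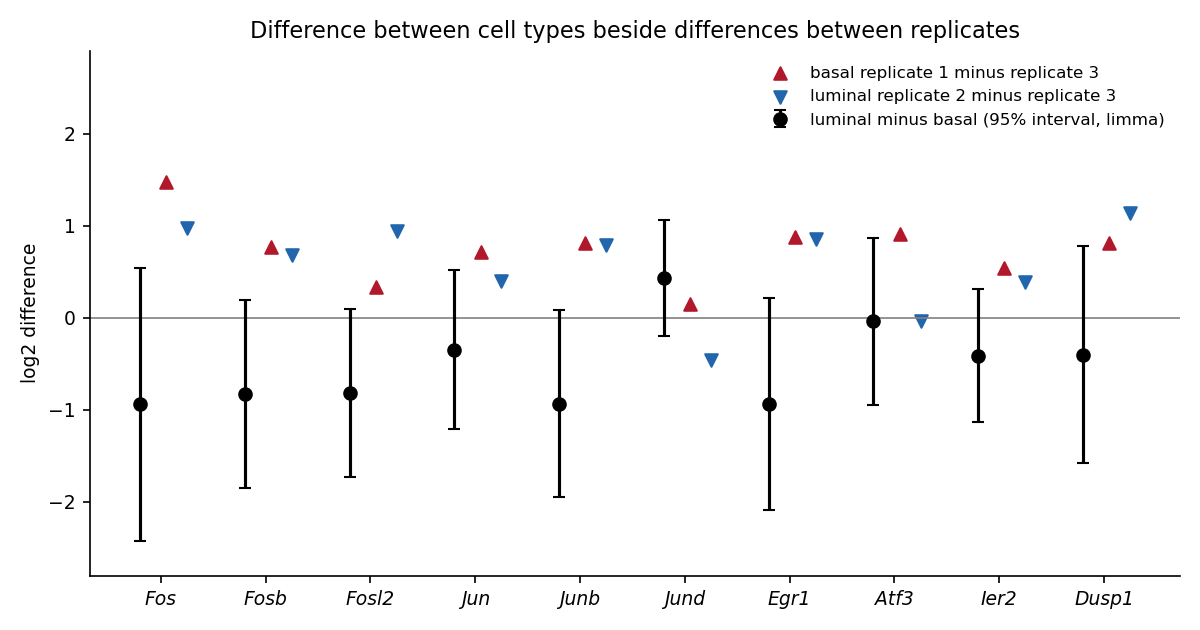
Log2 difference between luminal and basal means with its 95% interval from limma (black), beside the log2 difference between the replicates of each cell type (red, basal replicate 1 minus 3; blue, luminal replicate 2 minus 3). Every interval between cell types includes 0, and the replicate ratios run from 0.727-fold for *Jund* in luminal to 2.78-fold for *Fos* in basal cells.

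Replicates of the same cell type were compared by the ratio of their normalized counts. Basal replicate 1 exceeded basal replicate 3 in all 10 genes, and in 10350 of the 18737 tested, from 1.11-fold (95% exact interval on reads 1.03 to 1.21) for *Jund* to 2.78-fold (2.68 to 2.89) for *Fos*. *Atf3* stood at 1.88-fold, *Egr1* at 1.84-fold, *Junb* at 1.76-fold and *Fosl2* at 1.26-fold. Luminal replicate 2 exceeded luminal replicate 3 in 8 of 10 genes, and in 9880 of all genes tested, by 2.20-fold (1.84 to 2.64) for *Dusp1* and 1.97-fold (1.79 to 2.18) for *Fos*. The exceptions were *Atf3*, at 0.977-fold (0.894 to 1.07), and *Jund*, at 0.727-fold (0.629 to 0.838). For *Fos*, *Jun*, *Atf3*, *Ier2* and *Dusp1*, the basal replicates differed by a larger factor than the means of the cell types did.

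Basal replicate 1 was the highest library in 9 of the 10 genes, against 29.7% of all genes tested and 39.5% of those averaging at least 1000. Luminal replicate 3 was the lowest in 8 of 10, against 29.6% and 45.6%. The median log2 difference of basal replicate 1 over basal replicate 3 was 0.79 for the 10 genes and 0.10 for all genes, and that of luminal replicate 2 over luminal replicate 3 was 0.73 and 0.08.

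Levels were compared between genes per kilobase of merged exon length. In basal cells *Fos* stood first of the 10 with 18481 per kilobase, followed by *Egr1* at 15365, *Atf3* at 12557, *Jun* at 10261 and *Fosb* at 9672. In luminal cells *Atf3* stood first with 11650 per kilobase, ahead of *Fos* at 8983, *Egr1* at 7979, *Jun* at 7914 and *Jund* at 6214. The spread of *Fos* between replicates (27189 and 9774 in basal, 11924 and 6043 in luminal libraries) spans most of its neighbours in this order, so the first ranks are not separable. *Fosl2* was the lowest of the 10 in both cell types, at 1160 and 688 per kilobase. Among 18672 genes ranked by level per kilobase, *Fos* was 29th in basal replicate 1, 71st in basal replicate 3, 56th in luminal replicate 2 and 146th in luminal replicate 3.

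The make-up of the Fos and Jun pool also varied by library. The Fos family (*Fos*, *Fosb*, *Fosl1* and *Fosl2*) held 61.0% and 53.7% of the summed level per kilobase in basal replicates 1 and 3, and 51.3% and 40.1% in luminal replicates 2 and 3. The ratio of Fos family to Jun family level was 1.57 and 1.16 in basal and 1.05 and 0.669 in luminal libraries. The groups did not overlap, and with 2 libraries against 2 no two-sided exact permutation p can be lower than 0.333. *Jund* varied more than *Fosb* and *Jun*, with 7.06% and 11.6% of the pool in the basal libraries (replicates 1, 3) and 13.5% and 25.8% in the luminal ones (replicates 2, 3). The shares of *Fosb* and *Jun* lay within 14.9% to 19.3% and 18.7% to 24.5%. *Fosl1*, which encodes Fra-1, held 5.25% in basal replicate 3 and 0.989% to 1.78% elsewhere.

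**Figure D3:**
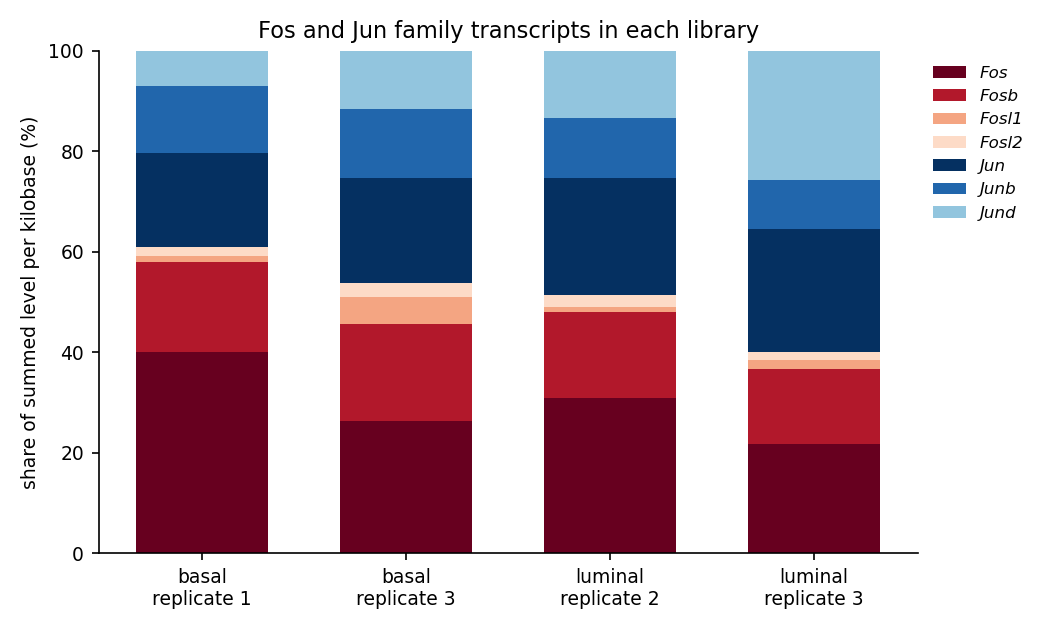
Share of each Fos family (red tones) and Jun family (blue tones) transcript in the summed level per kilobase, 1 stacked bar per library. The Fos family holds 61.0% in basal replicate 1 and 40.1% in luminal replicate 3, and *Jund* takes 25.8% in the latter.

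The promoters of these genes are known to be switched on through cAMP response elements and serum response elements. Windows from 250 bases before to 50 after the RefSeq start (GRCm38.p6) were held for 8 of the 10 genes, with *Egr1* and *Ier2* missing from the table. The core of the cAMP response element, TGACG on either strand, was present in 5 of the 8 (*Fos*, *Fosb*, *Junb*, *Atf3* and *Dusp1*), against 20.8% of all 32851 windows. The full palindrome TGACGTCA, which contains that core on both strands, was in *Dusp1* alone and in 1.79% of all windows. The AP-1 site TGANTCA on either strand was in 0 of 8 (7.81% of windows), the CArG box of serum response elements in 0 of 8 (1.63%), and TATAAA on either strand in *Fos* and *Junb* (13.6%). A match is a description of these letters only. Elements farther from the start than these windows reach were not searched, so 0 matches does not show that a gene lacks them. The last 150 bases before the start are shown for *Fos* (chr12:85473740-85473889, plus strand), *Fosb* (chr7:19310046-19310195, minus strand), *Junb* (chr8:84978749-84978898, minus strand) and *Dusp1* (chr17:26508473-26508622, minus strand), genes highest in basal replicate 1 and lowest in luminal replicate 3. *Jun* and *Fosl2* were also highest and lowest in these libraries but had no core in their windows. *Atf3* has the core but was lowest in basal replicate 3, and its sequence is not shown. Each printed sequence is written 5′ to 3′ with TGACG on either strand in capitals.
Fos: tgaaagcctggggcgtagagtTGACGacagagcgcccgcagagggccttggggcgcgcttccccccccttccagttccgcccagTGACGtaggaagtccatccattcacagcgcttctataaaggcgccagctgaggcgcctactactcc
Fosb: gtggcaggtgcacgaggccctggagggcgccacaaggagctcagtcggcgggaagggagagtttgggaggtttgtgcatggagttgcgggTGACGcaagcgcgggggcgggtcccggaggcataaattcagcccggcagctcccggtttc
Junb: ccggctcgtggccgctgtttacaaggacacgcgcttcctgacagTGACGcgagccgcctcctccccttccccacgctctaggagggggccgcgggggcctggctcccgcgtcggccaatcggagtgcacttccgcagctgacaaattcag
Dusp1: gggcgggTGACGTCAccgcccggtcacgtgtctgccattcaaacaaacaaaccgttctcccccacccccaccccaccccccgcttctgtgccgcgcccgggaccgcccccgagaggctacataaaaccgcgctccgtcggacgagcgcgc
Counted from the start, with -1 the base before it, the nearest core begins at -66 in *Fos*, -60 in *Fosb*, -106 in *Junb* and -140 in *Dusp1*.

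The remaining AP-1 subunits and bZIP partners were evaluated with a list of 20 genes, of which 18 passed the filter and 0 had a limma adjusted p under 0.05 (6 had an unadjusted p under 0.05, against 18.5% of all genes). *Fosl1* was at 1685 and 3956 in basal and 779 and 1007 in luminal replicates 2 and 3, a log2 difference of -1.54 (SE 0.45, limma adjusted p = 0.156). Its higher basal library was replicate 3, the reverse of the order seen in *Fos* and *Fosb*. *Maf*, a large Maf factor, was at 3964 and 2455 in basal and 1215 and 290 in luminal replicates 2 and 3 (log2 difference -2.39, SE 0.70, limma adjusted p = 0.156). *Jdp2*, a repressor that pairs with Jun, was at 282 and 279 in basal and 280 and 58 in luminal replicates 2 and 3, and the last value rests on 3 reads.

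The wider set of immediate early genes was read in the same way. Of 48 genes, all of which passed the filter, 15 were past the fold rule toward basal cells (31.2%, against 16.3% of all genes) and 0 toward luminal cells, with a median log2 difference of -0.56. Both basal libraries lay above both luminal libraries in 27 of the 48 genes. That order held for 27.3% of all genes and 48.4% of those averaging at least 1000. The opposite order held in 1 of the 48, against 23.6% and 16.6%. By limma, 0 had an adjusted p under 0.05, 13 had an unadjusted p under 0.05 (18.5% of all genes did), and the lowest adjusted p was 0.0659. The number past the fold rule toward basal cells was 23 without luminal replicate 2 and 8 without luminal replicate 3. *Tnfaip3*, an inhibitor of NF-kappaB signalling, was at 7283 and 5729 in basal and 2213 and 1510 in luminal replicates 2 and 3 (log2 difference -1.82, SE 0.28, limma adjusted p = 0.0659). *Ccn2*, a matricellular target of YAP, was at 1378 and 2274 in basal and 592 and 213 in luminal replicates 2 and 3 (-2.31, SE 0.57, limma adjusted p = 0.0990). *Egr3* was at 2361 and 2494 in basal and 1215 and 329 in luminal replicates 2 and 3 (-1.94, SE 0.62, limma adjusted p = 0.188). *Zfp36l2*, an RNA-decay factor, was at 9519 and 5573 against 3646 and 1278 (-1.75, SE 0.55, limma adjusted p = 0.183).

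Among the most abundant of these genes were the orphan nuclear receptors, named after their values were seen. *Nr4a1* was at 69872 and 32401 in basal and 27953 and 20834 in luminal replicates 2 and 3, the same order as *Egr1*. *Nr4a3* was at 20354 and 27380 in basal and 12932 and 4589 in luminal replicates 2 and 3, with its higher basal value in replicate 3. Basal replicate 1 was the highest library in 27 of the 48 genes (29.7% of all genes, and 39.5% of those averaging at least 1000) and luminal replicate 3 the lowest in 39 (29.6% and 45.6%). Luminal replicate 2 exceeded luminal replicate 3 in 41 of them, and in 9880 of the 18737 genes tested.

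**Figure D4:**
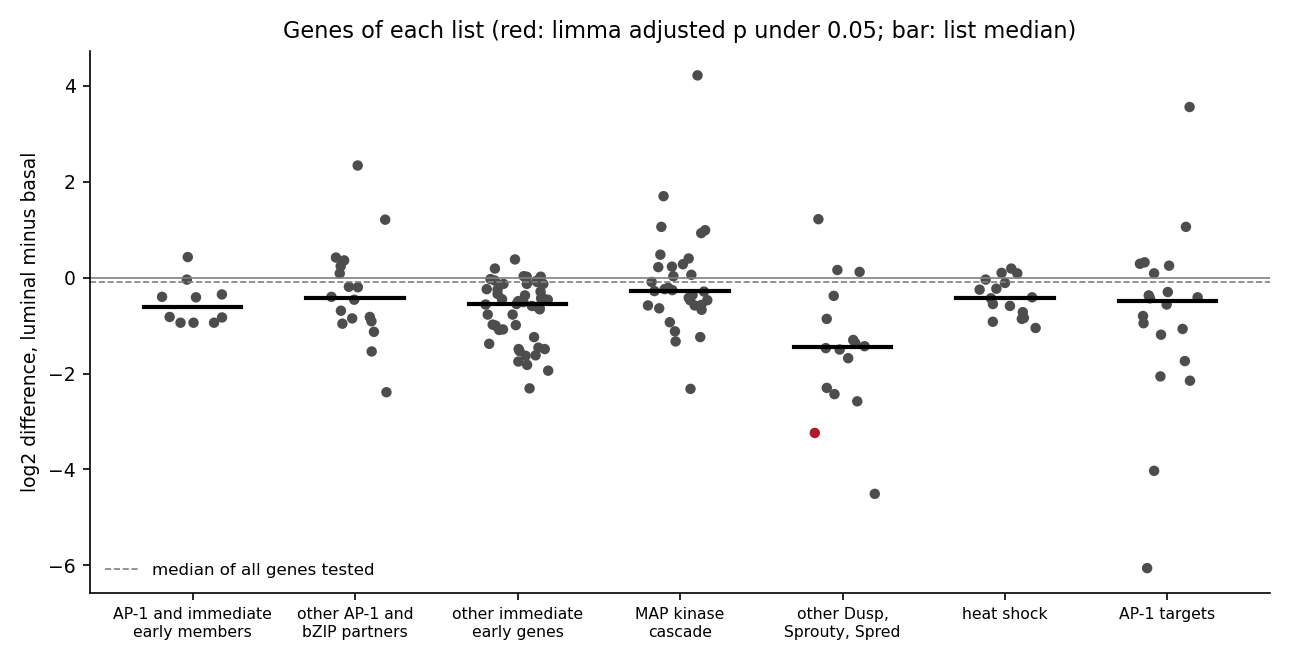
Log2 difference, luminal minus basal, of each gene that passed the filter in 7 lists, with the list median as a bar and the median of all genes (-0.10) as a dashed line. The phosphatase, Sprouty and Spred list has the lowest median (-1.45) and holds the single red point, *Dusp6*.

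Other feedback genes of the ERK pathway were read beside *Dusp1*. *Dusp6*, the cytoplasmic phosphatase of ERK, was at 13308 and 14278 in basal and 1278 and 1665 in luminal replicates 2 and 3, and the log2 difference was -3.24 (SE 0.23, limma adjusted p = 0.0247). Its basal libraries differed by far less than the cell types did, and it was the single gene of the lists on AP-1, signalling and stress to pass the limma threshold. The adjusted p was 0.228 without a filter on low values and between 0.0670 and 0.0925 without basal replicate 1, basal replicate 3 or luminal replicate 2. Of 17 genes of the list of other dual-specificity phosphatases, Sprouty and Spred genes, 16 passed the filter, 10 were past the fold rule toward basal cells (62.5%, against 16.3% of all genes) and 1 toward luminal cells (18.3% of all genes), and the median log2 difference was -1.45. The 10 include *Dusp2*, which passed the filter only through basal cells, with 4 and 3 basal reads and 0 in each luminal library. With the filter applied in both groups 9 were past the fold rule toward basal cells, and 8 after rescaling to nuclear protein-coding genes. *Spred2*, an inhibitor of Raf activation, was at 4421 and 2592 in basal and 530 and 600 in luminal replicates 2 and 3 (-2.58, SE 0.33, limma adjusted p = 0.0527). *Dusp7* was at 1127 and 1410 in basal and 374 and 174 in luminal replicates 2 and 3 (-2.30, SE 0.46, limma adjusted p = 0.0705). *Dusp14* was at 432 and 416 against 31 and 194 (-2.43, SE 0.95, limma adjusted p = 0.262), with a single read in luminal replicate 2.

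The MAP kinase cascade itself had 32 genes, all passing the filter, with 4 past the fold rule toward basal cells (12.5%, against 16.3% of all genes), 3 toward luminal cells (18.3% of all genes) and a median log2 difference of -0.27. By limma, 0 had an adjusted p under 0.05, and 6 had an unadjusted p under 0.05 (18.5% of all genes). *Mapk12*, which encodes p38 gamma, was at 38 and 32 in basal and 561 and 794 in luminal replicates 2 and 3, a log2 difference of 4.22 (SE 0.59, limma adjusted p = 0.0591). The opposite direction was seen in *Elk3*, a ternary complex factor, at 701 and 338 in basal and 218 and 194 in luminal replicates 2 and 3 (-1.24, SE 0.51, limma adjusted p = 0.276). *Mapk10* and *Rps6ka4* had log2 differences of -2.32 and -1.33 and rested on 1 to 8 luminal reads.

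Genes known as AP-1 targets in other systems were read beside *Fos*. Of 22 such genes 20 passed the filter, 6 were past the fold rule toward basal cells (30.0%, against 16.3% of all genes) and 2 toward luminal cells (18.3% of all genes). By limma, 0 had an adjusted p under 0.05 and 8 an unadjusted p under 0.05 (18.5% of all genes). Basal replicate 1 was the highest library in 6 of the 20, against 29.7% of all genes. *Lif*, a cytokine of the interleukin-6 family, was at 1672 and 4664 in basal and 249 and 116 in luminal replicates 2 and 3 (log2 difference -4.03, SE 0.63, limma adjusted p = 0.0659). *Cd44*, the hyaluronan receptor, was at 12312 and 14252 against 2150 and 4124 (-2.15, SE 0.36, limma adjusted p = 0.0659). *Itgb4*, the hemidesmosome integrin, was at 8079 and 7126 against 1402 and 2362 (-2.06, SE 0.31, limma adjusted p = 0.0637). *Ereg*, an EGF receptor ligand, was at 964 and 91 in basal libraries and had 0 and 1 reads in luminal replicates 2 and 3.

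Heat shock genes, which also respond to handling, and markers of other cell types were read beside the immediate early genes. Of 16 heat shock genes, all passing the filter, 0 had a limma adjusted p under 0.05 (3 had an unadjusted p under 0.05, against 18.5% of all genes), 1 was past the fold rule toward basal cells (6.25%, against 16.3% of all genes), and the median log2 difference was -0.42. That one was *Dnajb4*, at 4115 and 3053 in basal and 1745 and 1685 in luminal replicates 2 and 3 (-1.05, SE 0.25, limma adjusted p = 0.0923). *Dnajb1*, *Hspd1* and *Hsph1* had log2 differences of -0.92, -0.84 and -0.86. Summed over the list, heat shock counts were 84565 and 79754 in basal and 69772 and 66664 in luminal replicates 2 and 3, the same order of libraries as the summed immediate early genes except for the place of basal replicate 3 above luminal replicate 2.

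Stromal and smooth muscle markers followed another order. Their summed counts over 10 genes were 124270 and 246500 (basal, replicates 1 and 3) and 241883 and 79571 (luminal, replicates 2 and 3), with 0 of the 10 genes at 0 in some library. CD140a-positive cells had been gated out of both groups. Of the 10 genes, 4 had a lower mean log2 value in luminal cells, 1 was past the fold rule in each direction (16.3% of all genes toward basal and 18.3% toward luminal cells), and the median log2 difference was 0.16 (range -2.11 to 1.35). *Dcn*, a fibroblast proteoglycan, was at 45830 and 47724 in basal and 20256 and 5770 in luminal replicates 2 and 3. The smooth muscle genes *Acta2*, *Myh11* and *Des* had log2 differences of -0.78, -1.35 and 1.35, and *Des* has a value off its library's spacing. The sum was lowest in luminal replicate 3, as was *Fos*, while basal replicate 1, with the highest *Fos*, had a lower sum than basal replicate 3. Luminal replicate 3 was the lowest library in 5 of the 10 stromal genes, against 29.6% of all genes and 45.6% of those averaging at least 1000. Endothelial markers summed to 1535 and 1585 in basal and 1745 and 581 in luminal replicates 2 and 3 (5 genes, 1 of them at 0 in some library). Immune markers summed to 3081 and 1689 in basal and 2025 and 891 in luminal replicates 2 and 3 (6 genes, 4 at 0 in some library), an order that matched that of the immediate early genes. Of the 4 immune genes that passed the filter, 3 had a lower mean log2 value in luminal cells, with log2 differences from -3.14 to 1.43. By the fold rule 2 were higher in basal and 0 in luminal cells, against 16.3% and 18.3% of all genes. *Ptprc*, which encodes CD45, held 24 and 1 reads in the basal libraries (replicates 1, 3) and 0 in each luminal library. Neural and glial markers summed to 581 and 1032 in basal and 124 and 271 in luminal replicates 2 and 3 (5 genes, 4 at 0 in some library). Of the 4 neural genes that passed the filter, 3 were past the fold rule toward basal cells and 1 toward luminal cells, against 16.3% and 18.3% of all genes. The mean log2 value was lower in luminal cells in all 4, so for 1 of them the ratio of averages and the log2 difference have opposite directions. The part of these cells in the result was not tested.

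**Figure D5:**
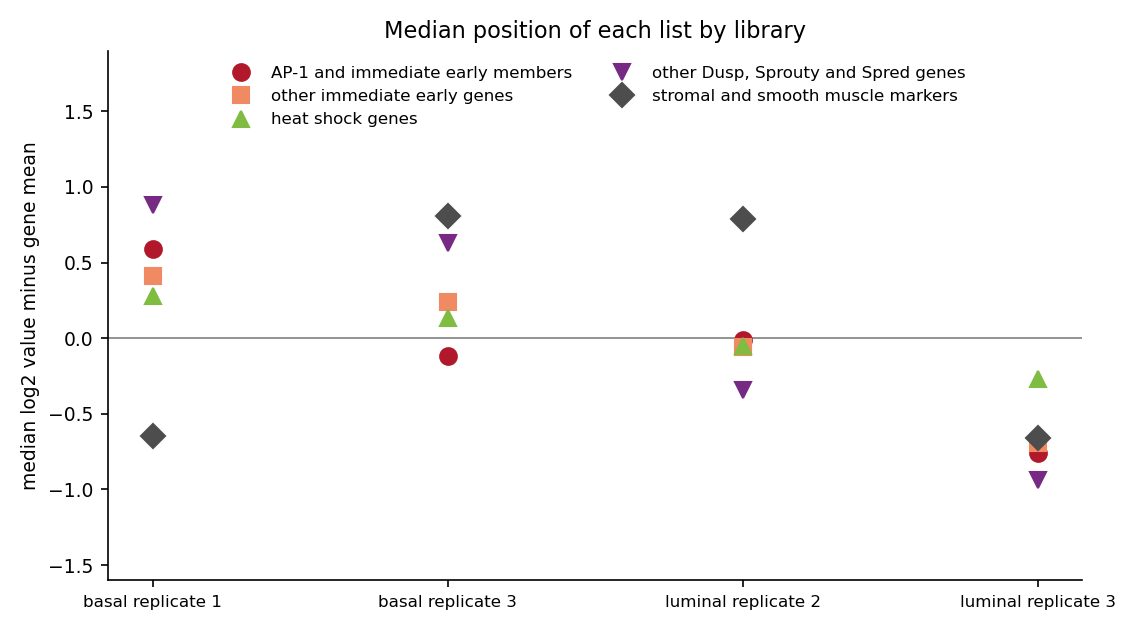
Median over each list of the log2 normalized count minus the gene's own mean, for the 4 libraries. The 10 AP-1 and immediate early genes stand at 0.59 and -0.12 (basal, replicates 1 and 3) and -0.01 and -0.76 (luminal, replicates 2 and 3), while stromal markers stand at -0.65, 0.81, 0.79 and -0.66.

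Over the 4 libraries, the genes whose centred log2 pattern was most like that of *Fos* were *Rsf1os2*, *Fam13a*, *Exd2*, *Zfp398* and *Plrg1*, with root mean square distances of 0.05 to 0.12 among 12543 genes averaging at least 100. *Rsf1os2*, an antisense gene, was at 369 and 136 in the basal (replicates 1, 3) and at 156 and 77 in the luminal libraries (replicates 2, 3). Of the other members, *Egr1* ranked 30th at a distance of 0.22, *Junb* 44th at 0.24 and *Fosb* 70th at 0.28, while *Jund* ranked 8102nd at 0.97. With 4 points, such likeness is a description.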

How the data were processed

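RNA-seq of basal and luminal cells sorted from prostate tips (4 libraries, 2 per cell type as labelled) was used. Reads were mapped by the authors to GRCm38 with STAR, counted per gene with HTSeq and scaled so that each library had the same number of aligned reads. The deposited signal is this normalized count, rounded to a whole number. Strand use and removal of duplicates are not given in the sources used here. Picard is listed in the submitters' processing notes without a role. All columns were mapped to a sample (0 unmapped).

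Low values (up to 60 reads) were multiples of a single number per library, the value of 1 read, for 97.9% to 99.0% of them within 0.6 units. Reads were obtained by dividing by it. All values of the 10 members lay on their own library's spacing, and 564 other genes had a value off it, which include *Des* of the stromal list. A gene was kept if some cell type had a minimum of 10 in each of its libraries and a mean of at least 20, after the study's filter (18737 genes). limma 3.58.1 in R 4.3.3 was fitted to log2 of the normalized count plus a pseudocount of 1, its prior variance following the mean, and p-values were adjusted by Benjamini-Hochberg over all genes kept. The fold rule is the study's (2 and 0.5 on group averages). Log2 differences are on this scale, as means of logs, and for low or variable genes can differ in size and direction from the ratio of averages. Intervals on reads are exact or Wilson at 95%. The limma fit was run on simulated data with changes larger than those of the members. Whether changes of their size could be called was not tested.

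Symbols, coordinates and merged exon lengths came from GENCODE M21 (GRCm38), which held 49412 of 49671 identifiers, while the authors used an Ensembl annotation of the same build. Promoters came from RefSeq. The members and lists were chosen with earlier results of these data known, and the target list was written from general knowledge. Named were all members and, of each other list on AP-1, signalling and stress, those whose adjusted p was under 0.05 and the 4 with the largest difference at an average of 100 or more. *Nr4a1*, *Nr4a3* and *Ptprc* were named after their values were seen, as were the lineage markers given out of those listed. A result that the rule names in the list of AP-1 partners is not reported here. Alternatives changed the filter, pseudocount, scaling and fold threshold and left out each library. Leaving out genes off the spacing and reading shares among genes averaging 1000 or more were chosen after seeing the data.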

Additional observations from a re-analysis of the deposited data

How the results depend on the processing

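With 2 libraries per cell type, no exact test of a single gene can pass, and the luminal libraries hold fewer reads. No paired analysis was possible because the groups share only 1 replicate number. The planned edgeR, DESeq2 and thinning alternatives were not run. An automatic check on whole reads was not passed for luminal replicate 2, because of genes with values off the spacing. Of its low values 98.3% lay on the spacing, as did its values of all 10 members. The reads given for that library rest on this spacing. Each fit without a library assumes that the lone sample varies like the other group. Over 110 values of the 10 members under 11 alternatives, 0 had a limma adjusted p under 0.05 (lowest 0.177), and 7 changed sign; up to 4 members had an unadjusted p under 0.05, with the filter applied in both groups (2672 of 14953 genes tested). *Jun* was at 0.01 and *Dusp1* at 0.00 without basal replicate 1, and *Dusp1* was at 0.17 without luminal replicate 3. *Atf3* was at 0.00 with median-ratio rescaling, 0.27 after rescaling on nuclear protein-coding genes, 0.25 with quantile normalization and 0.42 without basal replicate 1. Without each library in turn, *Jun* ranged from -0.70 to 0.01, *Atf3* from -0.49 to 0.42 and *Dusp1* from -0.97 to 0.17. The median of the members ranged from -1.07 to -0.17 without each library in turn and was -0.23 with quantile normalization. The direction of *Fos*, *Fosb*, *Fosl2*, *Junb*, *Jund*, *Egr1* and *Ier2* was kept in these alternatives.

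Members past the fold rule toward basal cells numbered 1, and 0 with median-ratio rescaling, rescaling on nuclear protein-coding genes or a fold of 4, 5 at a fold of 1.5, and 0 to 6 without each library. Other immediate early genes past it numbered 15, 1 at a fold of 4 and 8 to 23 without each library. Phosphatase, Sprouty and Spred genes past it numbered 10, 9 with the filter in both groups, 8 after rescaling on nuclear protein-coding genes and 4 at a fold of 4. Genes called by limma numbered 48 higher in luminal and 82 in basal cells. They numbered 0 and 0 without a filter (4455 at an unadjusted p under 0.05), 269 and 409 with the filter in both groups, 212 and 319 with a pseudocount of 10, and 356 and 519 with quantile normalization. Rescaling to nuclear protein-coding genes gave 63 and 62. Without each library they ranged from 6 to 830 and from 14 to 751. Genes past the fold rule numbered 3431 in luminal and 3051 in basal cells, 6535 and 7806 without a filter, 1852 and 1792 with the filter in both groups, 1456 and 1133 at a fold of 4, 4551 and 2147 after rescaling on nuclear protein-coding genes, and 5131 in basal cells at a fold of 1.5. Without each library they ranged from 3760 to 5554 in luminal and 3213 to 4406 in basal cells. The cause of these changes was not tested.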
